A study of Mus musculus with 36 samples.

Results

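The Myc and Mxd network was followed through 10 genes: the activators *Myc*, *Mycn* and *Mycl*, their shared partner *Max*, the antagonists *Mxd1*, *Mxd3*, *Mxd4* and *Mxi1*, and the related *Max* partners *Mnt* and *Mga*. They were chosen by name, through the gene symbol of each Ensembl identifier, and all 10 of them were found among the 30125 genes of the 3 deposited tables. The RNA came from primary mouse nephron progenitor cells (NPCs), isolated from embryonic kidneys and grown in a nephron progenitor medium with CHIR99021 (CHIR), an inhibitor of the kinase GSK3β that raises the level of β-catenin.

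The wild-type table held 3 libraries each of NPCs in no (0 µM), low (1.25 µM) and high (5 µM) CHIR. The β-catenin table held 16 libraries, 2 per group, all in low or high CHIR. In its Cre experiment, NPCs with a conditional *Ctnnb1* allele (B-catenin_c_c) received Cre mRNA or none, and in its Cas9 experiment, NPCs that carry Cas9-eGFP received a guide RNA to *Ctnnb1* or to *GFP*. The Tcf/Lef table held Cas9-eGFP NPCs given guides to *Tcf7*, *Lef1*, *Tcf7l1* and *Tcf7l2* together (QKO, quadruple knockout; 2 libraries in low and 3 in high CHIR) or the *GFP* guide (3 and 3). Transfected cells carried mCherry mRNA and were sorted for it, so the edited libraries are mixtures of transfected cells and not clones. The labels do not say which libraries came from separate animals or cultures, and the p-values therefore measure the spread between libraries, which may be technical.

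Myc proteins bind DNA as dimers with Max, mostly at the E-box CACGTG, and promote genes of ribosome assembly, metabolism and growth. The Mxd proteins, Mxi1 and Mnt also pair with Max at E-boxes but recruit Sin3 and histone deacetylases, and Mga joins Max in a Polycomb complex. In the kidney, *Mycn* and *Myc* are both made by nephron progenitors, and mice with reduced *Mycn* have small kidneys with few progenitors. GSK3β also marks Myc and Mycn proteins for destruction through Fbxw7. Only RNA was measured here.

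Values are the deposited normalized counts, scaled within a table, and levels of different genes are compared only per kilobase (kb) of exon. A gene was called when its adjusted p (limma, Benjamini-Hochberg over all genes tested in the table) was below 0.05 and its log2 fold change was at least 0.5 in size. Log2 fold changes are on the log2(normalized count + 1) scale and are given with their standard error (SE). Fewer NPCs among the cells and less RNA per NPC cannot be told apart in bulk libraries. The libraries of the 2 groups compared did not overlap for 16.4 to 61.3% of all genes tested, by comparison.

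Upstream sequence is shown for *Mycn* and *Mxd4*, which are among the members whose responses are described below. RefSeq promoters (GRCm38.p6, 250 bases before to 50 after a start site, 32851 windows) were matched to 9 members, all but *Myc*. The stretches printed are the bases before the start site that no annotated exon covers. Capitals mark an E-box (CACGTG) in *Mxd4* and matches to the E2F motif TTTNNCGC in *Mycn*, each searched on both strands.

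Mycn, chr12:12941915-12942086, minus strand: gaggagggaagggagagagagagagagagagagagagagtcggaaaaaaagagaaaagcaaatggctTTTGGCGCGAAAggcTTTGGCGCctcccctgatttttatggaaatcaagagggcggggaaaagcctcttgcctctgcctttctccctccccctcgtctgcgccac

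Mxd4, chr5:34187721-34187960, minus strand: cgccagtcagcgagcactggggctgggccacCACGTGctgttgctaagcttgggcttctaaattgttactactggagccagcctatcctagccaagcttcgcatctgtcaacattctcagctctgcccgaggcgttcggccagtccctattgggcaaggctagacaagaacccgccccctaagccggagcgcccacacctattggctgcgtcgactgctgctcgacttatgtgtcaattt

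The *Mycn* stretch held 3 partly overlapping matches to the E2F motif, with first bases 183, 179 and 168 bases before the start, a motif found in 5.17% of all promoter windows. The nearer part of the *Mycn* window, annotated as exon and not printed, held 1 match to the Tcf/Lef motif (CTTTGAA or CTTTGAT, in 8.65% of windows) 14 bases before the start. The *Mxd4* stretch held 1 E-box 219 bases before the start, and E-boxes were also found for *Mnt* (123 bases before) and *Max* (3 bases before). An E-box was present in 7.15% of all windows. The windows of *Mxd3*, *Mycl*, *Mxd1*, *Mxi1* and *Mga* held no match to any of these motifs. A match describes the letters only.

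Library depth lay between 13089780 and 76071568 reads, with a median of 18990328.5. Replicate 3 of wild type in high CHIR stood apart. Its highest correlation with a library of its own group was 0.921, against 0.973 between the other 2, and its normalized count was 11108 for the inducer *Wnt4* (1315 and 1473 in the others) but 94.4 for *Pax8* (7800.4 and 7498). Member results that turn on it are given with and without it, while results of all other genes include it and were not refitted. In all, 15 of 36 libraries, all in the knockout tables, were closer to a library of another group than to any of their own.

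Markers of NPCs were present throughout. In wild type the 8 progenitor markers summed to 26804 to 31362 normalized counts in no CHIR, 15446 to 20312 in low and 4146 to 9031 in high, where *Osr1* was at 0 in all 3 libraries. The 6 induction markers ran the other way, at 1428 to 2949.7, 2979 to 5776 and 24388 to 33698. In the same order, the 7 stroma markers summed to 1979 to 8635, 2969 to 5570.4 and 724 to 2596, the 6 ureteric markers measured to 496 to 947, 367 to 720.1 and 1317 to 5852, the 6 endothelium markers to 38.1 to 61.7, 26.6 to 47.3 and 650.5 to 1412 (with *Tie1* at 0 in high CHIR), and the 6 blood markers measured to 115 to 169.8, 89.8 to 124 and 43.3 to 48.2. Stroma markers also differed between libraries of the knockout tables. In high CHIR they summed to 2137 to 2138 without Cre and 3222 to 4653 with it. With the *GFP* and *Ctnnb1* guides they summed to 1873 to 7036 and 5229 to 9762 in high CHIR. In the Tcf/Lef controls and QKO they ran from 172 to 1765 and from 320 to 3458 there. In low CHIR all these pairs of groups overlapped. The part of all these markers in the results below was not tested.

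Of the targeted genes, *Ctnnb1* went from 2521 and 3397 to 1652 and 1039.6 normalized counts with its guide in low CHIR and from 2632 and 2701 to 1629.9 and 1270.1 in high CHIR, where it was called (-0.89, adjusted p = 0.0429, limma). With Cre it was at 3085 and 2451 against 3880.1 and 3097 in low CHIR and 2254 and 2583 against 2423 and 2207 in high CHIR, and neither difference was called. In the QKO in high CHIR *Tcf7* was called lower (109.5 to 179.7 against 268 to 535), while *Lef1* (255 to 513 against 1144 to 2743), *Tcf7l1* (539 to 736 against 486 to 612) and *Tcf7l2* (999 to 1616 against 1263 to 2233) were not. Counts over a whole gene check the loss of an exon or a cut by a guide only weakly. By immunostaining, the paper reports less β-catenin protein after both removals. It also reports loss of each Tcf/Lef protein with its own guide, the smallest for Tcf7.

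*Mycn* peaked at low CHIR in wild-type NPCs. Its normalized counts were 565, 656 and 544 in no CHIR, 2137, 2127 and 1940.2 in low CHIR and 398, 412 and 754 in high CHIR. Every low CHIR library was above every other, and the no and high CHIR libraries overlapped. *Mycn* was 3.52-fold higher in low than in no CHIR (log2 fold change 1.82, SE 0.23, adjusted p = 0.00362, limma) and 3.97-fold lower in high than in low CHIR (log2 fold change -2.05, SE 0.23, adjusted p = 0.000378, limma). Without high CHIR replicate 3, high CHIR was also called below no CHIR (-0.53, adjusted p = 0.0202, limma), which it was not with all libraries (-0.23, adjusted p = 0.491, limma).

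The 16 cycling cell genes also summed highest in low CHIR, at 54584 to 61551 normalized counts against 31952 to 37479 in no and 18311 to 47538 in high CHIR, and their part in the *Mycn* values was not tested. The *Mycn* gene (ENSMUSG00000037169, minus strand) lies at chr12:12936093-12941914 of GRCm38. Its neighbour *Ddx1*, an RNA helicase gene often gained together with *MYCN* in tumours, was at 4198, 3344 and 3731 in no CHIR, 4808, 5283 and 4975 in low and 4603, 4393 and 4420.1 in high CHIR and was not called.

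β-Catenin removal by Cre lowered *Mycn* at both CHIR levels. It fell from 867 and 575 to 199 and 145 normalized counts in low CHIR and from 846 and 606 to 172 and 172 in high CHIR. No library with Cre reached a library without it, and groups did not overlap for 34.3% of all genes in low and 47.3% in high CHIR. The reduction was 4.19-fold in low CHIR (log2 fold change -2.05, SE 0.30, adjusted p = 0.00741, limma) and 4.22-fold in high CHIR (log2 fold change -2.05, SE 0.30, adjusted p = 0.000636, limma). In low CHIR *Mycn* was the only member called, in a comparison that called 0.328% of genes (0.149% lower). That call was lost without replicate 1 of the low CHIR controls (-1.75, adjusted p = 0.137, limma), without replicate 2 of the low CHIR Cre group (-1.82, adjusted p = 0.104, limma) and in a fit on these 4 libraries alone (adjusted p = 0.128, limma). The cycling cell genes moved with it, summing to 36099 to 36519 against 50642 to 57715 in low and 35349 to 42412 against 50027 to 52051 in high CHIR, and their part was not tested.

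Removal by Cas9 also put *Mycn* below its controls. In low CHIR it was at 535 and 319 normalized counts against 844 and 595 with the *GFP* guide, and in high CHIR at 517 and 525 against 997 and 1341. The groups did not overlap at either level, which held for 30.1% of all genes tested in low and 61.3% in high CHIR. The difference was called in high CHIR (2.25-fold lower, log2 fold change -1.15, SE 0.30, adjusted p = 0.0417, limma) but not in low CHIR (-0.78, adjusted p = 1, limma). The high CHIR call was lost whichever of the 4 libraries was left out (adjusted p 0.0840 to 0.330, limma), fits in which the lone library of an arm is assumed to vary like the other groups. Between Cre and Cas9 the effect on *Mycn* differed by -1.27 (95% confidence interval -2.18 to -0.36) in low and -0.90 (-1.81 to 0.01) in high CHIR on the log2 scale, and neither difference was called. With the *Ctnnb1* guide the cycling cell genes summed to 39631.5 to 42121 against 42206 to 44202.5 with the *GFP* guide in low CHIR. In high CHIR they overlapped, at 37123.5 to 46331 against 42548 to 42838.5, and their part was not tested.

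In the QKO *Mycn* was not called. It was at 749 and 1009 normalized counts against 748, 689.9 and 571 in the controls in low CHIR, and at 641, 544 and 733 against 656, 482 and 486 in high CHIR. The QKO libraries lay just above the controls in low CHIR and overlapped them in high CHIR. The log2 fold changes were 0.39 (95% confidence interval -0.07 to 0.84) and 0.24 (-0.16 to 0.65). Without pairing, these comparisons called 0.0063% and 2.54% of genes, with no member in either. With replicates blocked by number *Mycn* was again not called (0.33, adjusted p = 0.751, and 0.24, adjusted p = 0.465, limma). That block called 1181 instead of 404 genes in high CHIR, with *Mxd3* among them. The QKO kept part of the high CHIR response, with induction markers at 10473 to 20051 normalized counts against 21545 to 37881 in controls. With β-catenin removed they were at 3113 to 3482 (Cre) and 4912 to 7417 (*Ctnnb1* guide), against 18748 to 20866 and 23172 to 24534. The paper also reports that Jag1-positive cells were only partly lost in the QKO. What a fuller loss would do to *Mycn*, *Myc* or *Mxd4* was not tested.

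Among transfected controls, high against low CHIR gave *Mycn* log2 fold changes of 0.02 (SE 0.30) without Cre, 0.71 (SE 0.30) with the *GFP* guide of the β-catenin table and -0.31 (SE 0.19) in the Tcf/Lef controls, and none was called. The *GFP* guide libraries of the β-catenin table in high CHIR all lay above those in low CHIR, the opposite order to wild type. In that comparison the groups did not overlap for 57.8% of all genes tested. The summed cycling cell genes overlapped between high and low CHIR in each set of controls. They were at 42548 to 42838.5 in high and 42206 to 44202.5 in low CHIR with this *GFP* guide. Without Cre they were at 50027 to 52051 and 50642 to 57715, and in the Tcf/Lef controls at 34788 to 45566.5 and 34224 to 43943. Levels in the 3 tables were normalised separately, which leaves fold changes within a table unchanged. By the paper's protocol, knockout cultures were transfected and kept in low CHIR for a knockout period, longer in the Tcf/Lef experiment. Transfected cells were also sorted, and these steps cannot be told apart from the table. The difference from wild type was not tested.

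**Figure D1:**
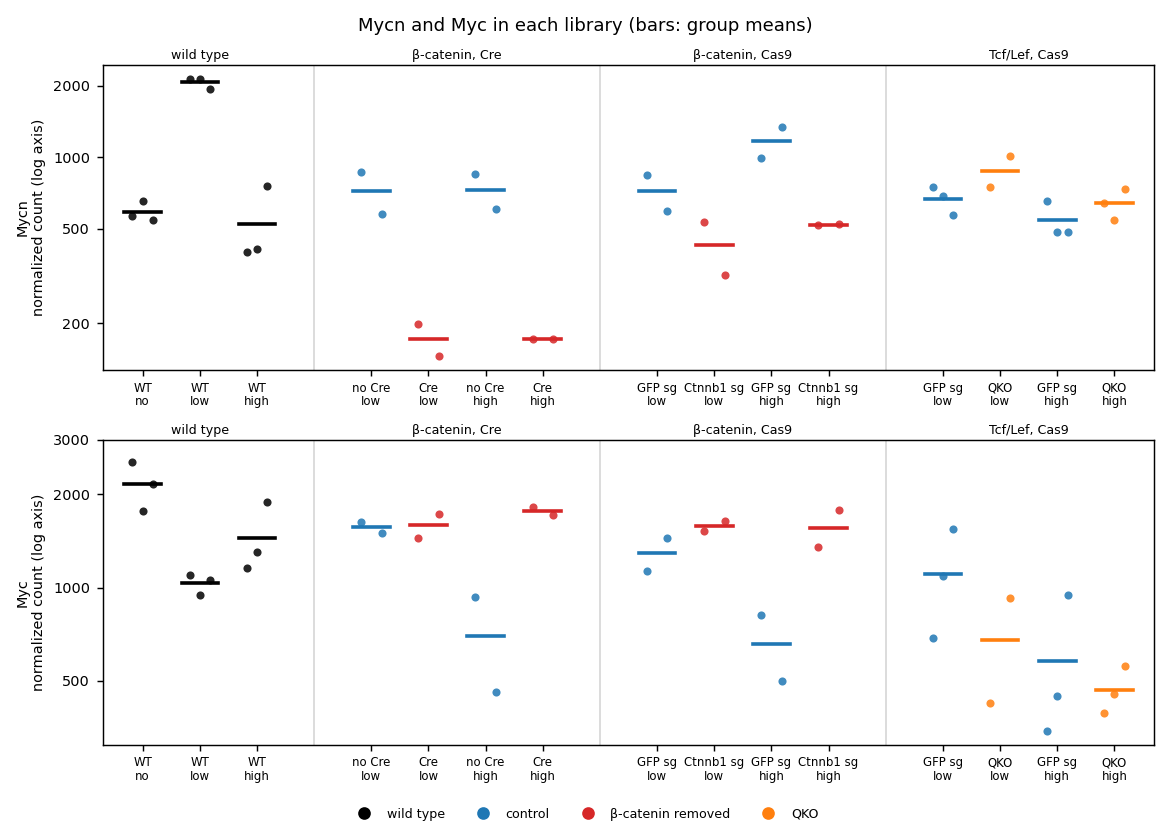
*Mycn* and *Myc* in each of the 36 libraries, as normalized counts on a log axis, by group; each point is a library, bars are group means, and each table was normalised separately. In wild type *Mycn* is highest in low CHIR, the libraries with Cre hold its lowest values, and *Myc* in high CHIR lies higher with than without β-catenin removal.

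*Myc* was lowest at low CHIR in wild type. It was at 2538, 1771 and 2165 normalized counts in no CHIR, 1097, 947 and 1055 in low CHIR and 1156, 1307 and 1884 in high CHIR. The low CHIR libraries lay below all others. *Myc* was 2.09-fold lower in low than in no CHIR (log2 fold change -1.05, SE 0.20, adjusted p = 0.0191, limma), and the difference between high and low CHIR was not called (0.46, adjusted p = 0.183, limma). The first call was lost without no CHIR replicate 3 or without any 1 of the low CHIR replicates (adjusted p 0.0625 to 0.1000, limma). High against no CHIR was not called (-0.59, adjusted p = 0.0524, limma), and was called without high CHIR replicate 3 (-0.80, adjusted p = 0.00469, limma) or no CHIR replicate 2 (-0.73, adjusted p = 0.0399, limma), and by DESeq2 on recovered reads (adjusted p = 0.0360).

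The *Myc* gene (ENSMUSG00000022346) lies on the plus strand at chr15:61985391-61990374. The noncoding RNA gene *Pvt1* next to it was at 67.8, 41.0 and 67.0 normalized counts in no CHIR, 129, 84.5 and 115 in low and 98.6, 113 and 164 in high CHIR, and was called higher in high than in no CHIR (1.08, adjusted p = 0.0278, limma).

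With β-catenin removed, *Myc* was higher than in controls in high CHIR. With Cre it was at 1816 and 1718 normalized counts against 932 and 459 without, and with the *Ctnnb1* guide at 1347 and 1778 against 815 and 498. Neither pair of groups overlapped, which held for 47.3% (Cre) and 61.3% (Cas9) of all genes tested. The differences were 2.54-fold (log2 fold change 1.43, SE 0.30, adjusted p = 0.00768, limma) and 2.38-fold (log2 fold change 1.28, SE 0.30, adjusted p = 0.0254, limma). The Cre call was lost without control replicate 2 (0.92, adjusted p = 0.0835, limma) and in a fit on these 4 libraries alone (adjusted p = 0.0685, limma), and the Cas9 call without *GFP* guide replicate 2 (0.93, adjusted p = 0.280, limma), *Ctnnb1* guide replicate 1 (adjusted p = 0.0595, limma) or replicate 2 (adjusted p = 0.249, limma). In low CHIR removal gave 0.02 (Cre) and 0.30 (Cas9) on the log2 scale, neither called.

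The same libraries give the CHIR response of *Myc* with and without β-catenin, so the next values share their control groups with those above. Without Cre, *Myc* went from 1625 and 1504 in low to 932 and 459 in high CHIR (log2 fold change -1.26, SE 0.30, adjusted p = 0.0181, limma). With Cre the change was 0.16 (SE 0.30) and was not called. The *GFP* guide gave -1.01, adjusted p = 0.0590, limma, which was called without high CHIR replicate 1 (-1.36, adjusted p = 0.0416, limma), and the *Ctnnb1* guide gave -0.03. The response changed by 1.41 (SE 0.42, adjusted p = 0.197, limma) with Cre and 0.98 (SE 0.42, adjusted p = 0.682, limma) with Cas9, neither called. The first passed without high CHIR control replicate 1 (adjusted p = 0.0320, limma). The fall without Cre was lost without low CHIR replicate 1 (-1.20, adjusted p = 0.107, limma) or high CHIR replicate 2 (-0.75, adjusted p = 0.171, limma), and in a fit on these 4 libraries alone (adjusted p = 0.0825, limma).

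In the QKO *Myc* was at 425 and 926 normalized counts in low CHIR against 687, 1094 and 1547 in the controls, and at 394, 452 and 558 against 344, 447 and 947 in high CHIR. The groups overlapped at both levels. The log2 fold changes of -0.74 (95% confidence interval -1.72 to 0.23) and -0.18 (-1.05 to 0.69) were not called. In the Tcf/Lef controls *Myc* was on average 1.91-fold lower in high than in low CHIR, not called in the unpaired fit (adjusted p = 0.120, limma) but called with replicates blocked by number (adjusted p = 0.00172, limma), and without high CHIR replicate 3 (adjusted p = 0.0279, limma).

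*Mycl*, the remaining activator, was near the limit of detection. It had 4.84, 0 and 6.70 normalized counts in no CHIR, 27.6, 16.1 and 8.38 in low CHIR and 31.4, 32.1 and 63.6 in high CHIR. The rise from no to high CHIR was called (log2 fold change 3.53, SE 0.78, adjusted p = 0.00904, limma), and that from no to low was not (2.23, adjusted p = 0.130, limma). In the β-catenin and Tcf/Lef tables *Mycl* averaged under 10 normalized counts and was left out of the test, with at most 12.4 in any library and 0 in both low CHIR libraries with Cre. So 10 members were tested in wild type and 9 in the other tables.

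Within a library, ratios of levels per kb do not depend on its scaling. *Mycn* made up 15.5 to 23.4% of the summed *Myc*, *Mycn* and *Mycl* level in no CHIR, 60.1 to 64.7% in low CHIR and 20.4 to 24.4% in high CHIR. Low CHIR stood apart, and no and high CHIR overlapped. Summed over the 3 genes the level was 851 to 1107 normalized counts per kb in no CHIR, 979 to 1059 in low and 554 to 938 in high. The low CHIR sums thus lay within the range of no CHIR.

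In the Cre experiment the share of *Mycn* was 23.9 to 30.5% in low and 42.7 to 51.8% in high CHIR without Cre, and 6.48 to 10.2% and 7.22 to 7.64% with it. In the Cas9 experiment it was 25.3 to 38.0% and 50.2 to 68.8% with the *GFP* guide, and 13.8 to 22.5% and 19.6 to 23.9% with the *Ctnnb1* guide. Every library with β-catenin removed lay below its controls. In the Tcf/Lef table the share was 23.3 to 47.3% and 29.6 to 60.6% in the controls and 47.2 to 59.2% and 49.6 to 57.2% in the QKO, with overlap at both levels.

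**Figure D2:**
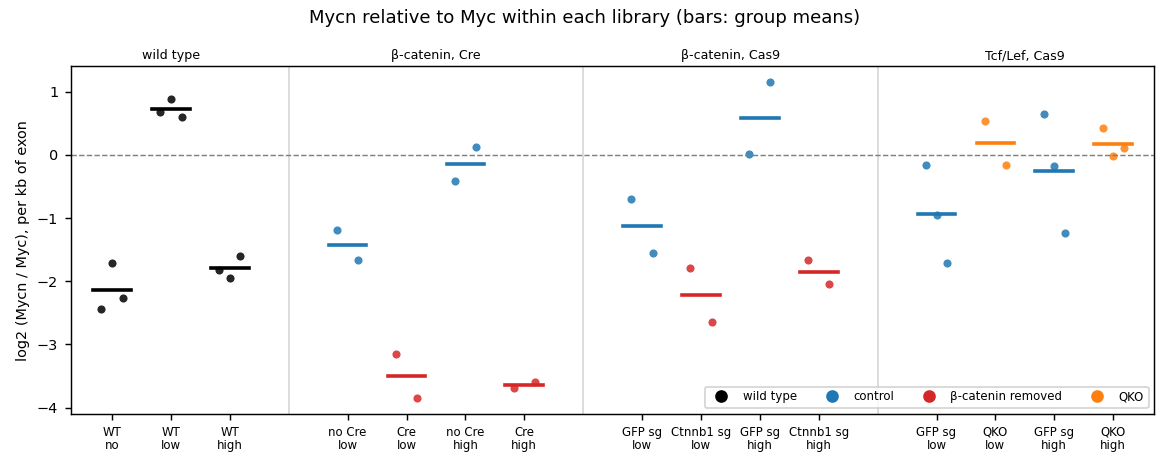
The log2 ratio of *Mycn* to *Myc*, each per kb of exon, within each library (points), with group means (bars), by group; 0 marks equal levels. The wild-type low CHIR libraries lie at 0.60 to 0.89, those in no CHIR at -2.45 to -1.71, and those with Cre lowest, at -3.85 to -3.15 in low CHIR.

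*Max*, the obligate partner, was not called in any comparison. It was at 973, 894 and 1025 normalized counts in no CHIR, 919.8, 1127 and 910.2 in low and 741, 638 and 900.1 in high CHIR, with log2 fold changes of 0.03 (low against no) and -0.38 (high against low). It ranged from 1941 to 3025 in the β-catenin table and from 839 to 1989 in the Tcf/Lef table. Per kb *Max* ranked first of the 10 in both knockout tables and after *Myc* and *Mycn* in wild type.

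*Mxd3*, an antagonist best known from cycling progenitors, was lower in high CHIR in wild type and in each set of controls. Its normalized counts were 386, 356 and 445 in no CHIR, 269, 423 and 375 in low CHIR and 133, 127 and 47.7 in high CHIR. The high CHIR libraries lay below all others. High CHIR was 3.47-fold below low CHIR (log2 fold change -1.90, SE 0.36, adjusted p = 0.00787, limma), and this was -1.42, adjusted p = 0.00147, limma without high CHIR replicate 3. High against no CHIR was also called (-2.07, adjusted p = 0.00265, limma), and low against no CHIR was not (-0.17, adjusted p = 0.835, limma).

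Among the controls *Mxd3* went from 593 and 331 to 128 and 105 without Cre (-1.93, adjusted p = 0.000526, limma) and from 309 and 335 to 126 and 112 with the *GFP* guide (-1.43, adjusted p = 0.00534, limma). In the Tcf/Lef controls it went from 359.6, 188 and 201 to 92.3, 51.6 and 90.4 (-1.65, adjusted p = 0.00216, limma). High CHIR was below low CHIR in each. The *GFP* guide call was lost without low CHIR replicate 2 (adjusted p = 0.0512, limma) or high CHIR replicate 2 (adjusted p = 0.0617, limma).

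With β-catenin removed the CHIR response of *Mxd3* was not called. With Cre it went from 361 and 292 to 230.2 and 214 (log2 fold change -0.55, SE 0.27), and with the *Ctnnb1* guide from 308 and 383 to 194 and 246 (-0.65, SE 0.27). In high CHIR its level with removal lay above controls without overlap, by 0.93 (Cre, adjusted p = 0.0517, limma) and 0.87 (Cas9, adjusted p = 0.0879, limma) on the log2 scale, short of the threshold. The Cre difference passed with TMM rescaling (adjusted p = 0.0486, limma). The response changed by 1.38 (SE 0.39, adjusted p = 0.160, limma) with Cre and 0.78 (SE 0.39, adjusted p = 0.765, limma) with Cas9. The first passed without low CHIR control replicate 2 (1.80, adjusted p = 0.0337, limma).

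In the QKO *Mxd3* was at 307 and 254 normalized counts in low CHIR and 144, 136 and 142 in high CHIR, a difference that was not called (-0.98, adjusted p = 0.147, limma) but was in a fit on these 5 libraries alone (adjusted p = 0.0424, limma) and by DESeq2 (adjusted p = 0.0273). All 3 high CHIR values were above all 3 controls. The difference of 0.89 on the log2 scale (SE 0.29) was not called without pairing (adjusted p = 0.150, limma) and was called with replicates blocked by number (adjusted p = 0.0324, limma), the only member that was. The gene (ENSMUSG00000021485, minus strand, chr13:55325168-55329823) shares 105 exonic bases with *Prelid1* on the other strand, and the library kit does not keep the strand.

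*Mxd4*, an antagonist of cells leaving the cycle, was highest without CHIR in wild type. It had 1081, 926 and 1006 normalized counts in no CHIR, 474, 498 and 509 in low CHIR and 286, 255 and 536 in high CHIR. The no CHIR libraries lay above all others, and high CHIR replicate 3 lay above the low CHIR libraries. *Mxd4* was 2.04-fold lower in low than in no CHIR (log2 fold change -1.02, SE 0.25, adjusted p = 0.0439, limma), but this call was lost whichever of the 6 libraries was left out (adjusted p 0.0808 to 0.161, limma). High against no CHIR was called (log2 fold change -1.56, SE 0.25, adjusted p = 0.00146, limma). The step from low to high CHIR was not (-0.54, adjusted p = 0.207, limma), and was called without high CHIR replicate 3 (-0.87, adjusted p = 0.00326, limma).

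In the controls of the knockout tables *Mxd4* was lower in high than in low CHIR. It went from 591 and 776 to 143 and 311 without Cre (log2 fold change -1.68, SE 0.32, adjusted p = 0.00441, limma) and from 593 and 818 to 153 and 174 with the *GFP* guide (log2 fold change -2.09, SE 0.32, adjusted p = 0.00107, limma). In the Tcf/Lef controls it went from 952, 788 and 759.9 to 335, 242 and 344 (log2 fold change -1.45, SE 0.17, adjusted p = 0.000150, limma). The groups did not overlap in any of the 3, which held for 47.1%, 57.8% and 29.2% of all genes tested, in that order. The call without Cre was lost without high CHIR replicate 1 (-1.12, adjusted p = 0.0505, limma).

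β-Catenin removal raised *Mxd4* in high CHIR, where it was at 582 and 789 normalized counts with Cre and 392 and 550.1 with the *Ctnnb1* guide. These libraries lay above all high CHIR controls of the table. The differences were 3.02-fold (log2 fold change 1.68, SE 0.32, adjusted p = 0.00425, limma) and 2.88-fold (log2 fold change 1.50, SE 0.32, adjusted p = 0.0155, limma). The Cre call was lost in a fit on these 4 libraries alone (adjusted p = 0.0695, limma). The Cas9 call was lost without *Ctnnb1* guide replicate 2 (1.26, adjusted p = 0.191, limma), *GFP* guide replicate 1 (adjusted p = 0.102, limma) or *GFP* guide replicate 2 (adjusted p = 0.0852, limma). In low CHIR it was at 1087 and 959 with Cre and 965 and 907 with the *Ctnnb1* guide, and the differences of 0.59 and 0.43 were not called. Neither were the changes in the CHIR response, 1.09 and 1.08 (SE 0.45 each).

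In the QKO *Mxd4* was at 972 and 841 normalized counts in low CHIR and 329, 298 and 292 in high CHIR, where it overlapped the controls. QKO against control in high CHIR gave a log2 fold change of 0.01 with a 95% confidence interval of -0.36 to 0.38. Within the QKO the difference between high and low CHIR was called (log2 fold change -1.56, SE 0.19, adjusted p = 0.00115, limma), and *Mxd4* was the only member called in that comparison, which called 2.54% of genes (1.12% lower). The gene (ENSMUSG00000037235) lies at chr5:34173883-34187720 on the minus strand and shares 514 exonic bases with *Gm42846* on the other strand.

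**Figure D3:**
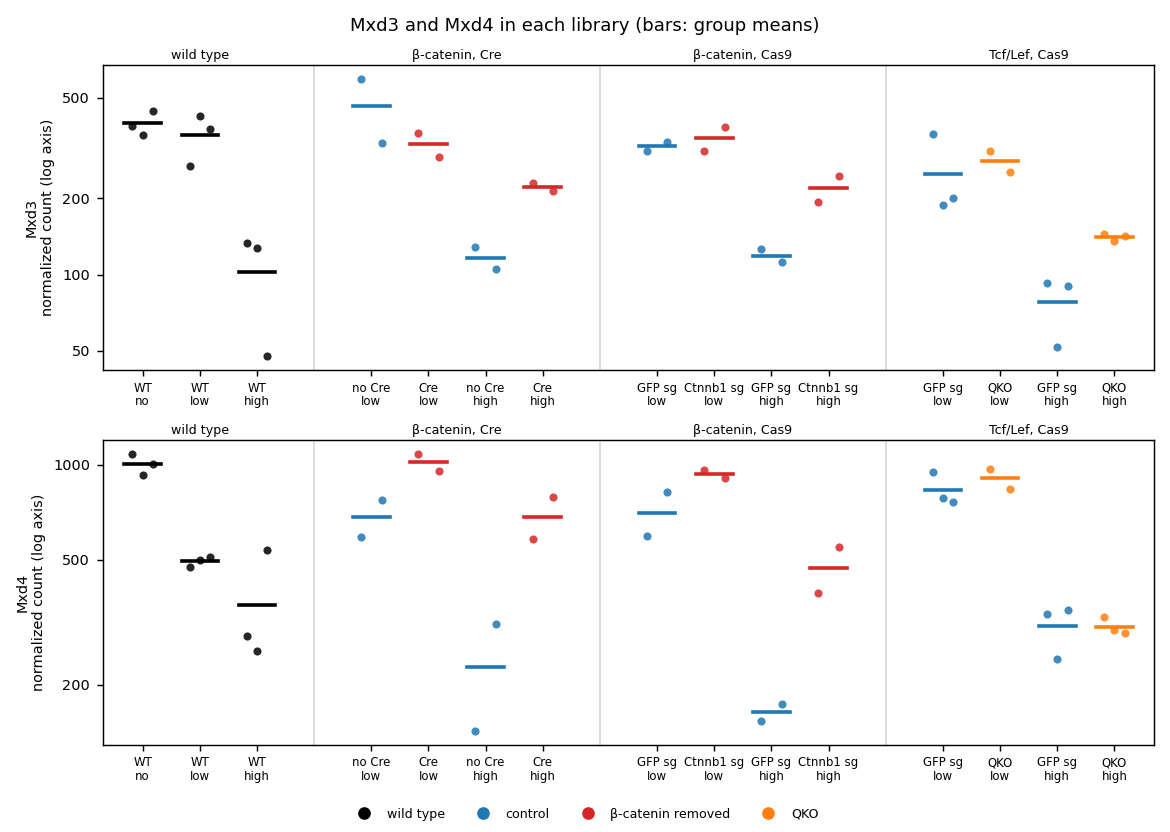
*Mxd3* and *Mxd4* in each of the 36 libraries, as normalized counts on a log axis, by group; each point is a library, bars are group means, and each table was normalised separately. In the knockout tables the high CHIR controls lie at 51.6 to 128 for *Mxd3* and 143 to 344 for *Mxd4*, and both β-catenin removals lie above the high CHIR controls of their own experiment.

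*Mxd1* and *Mxi1* were not called in the main limma fits, over all groups and without a replicate block. *Mxd1* was at 245, 168 and 249 normalized counts in no CHIR, 154, 161 and 193 in low and 134, 129.8 and 163 in high CHIR, and high against no CHIR (-0.62, adjusted p = 0.0690, limma) was called only without no CHIR replicate 2 among the libraries left out (-0.80, adjusted p = 0.0294, limma), and by DESeq2 (adjusted p = 0.0271). In the Tcf/Lef controls *Mxd1* went from 287, 259 and 239 to 181, 162 and 166 in high CHIR, with no overlap, and the difference just missed the threshold (-0.62, adjusted p = 0.0506, limma). It passed with replicates blocked by number (adjusted p = 0.0362, limma), with a pseudocount of 0.5 (adjusted p = 0.0496, limma), with TMM rescaling (adjusted p = 0.0485, limma) and without low CHIR replicate 3 (adjusted p = 0.0476, limma). *Mxi1*, whose protein also recruits Sin3, ranged from 220.1 to 335 in wild type, 195 to 291 in the β-catenin table and 168 to 336 in the Tcf/Lef table. It shares 194 exonic bases with genes on the other strand, *AC133451.2* and *Gm10197*.

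*Mnt*, a widely expressed antagonist of Myc, ranged from 229 to 329.9 normalized counts in wild type, 138 to 289.8 in the β-catenin table and 141 to 351 in the Tcf/Lef table. *Mga*, whose exonic sequence is the longest of the 10 at 15340 bases, ranged from 974 to 1729, 794 to 1598 and 1446 to 2031. Neither was called in any comparison in the main limma fits, over all groups and without a replicate block. *Mga* went from 878 and 794 in low to 1374 and 1346 in high CHIR with the *Ctnnb1* guide (log2 fold change 0.70, SE 0.16, adjusted p = 0.0731, limma). DESeq2 on recovered reads called this difference (adjusted p = 0.0181), as did the replicate block (adjusted p = 0.0342, limma).

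Counted over the members, low against no CHIR called 1 higher and 2 lower of 10 in wild type, where 4.97% of all genes were called (2.6% higher and 2.37% lower). Of the same 10, high CHIR against low called 2 lower, where 10.4% of genes were called and 5.05% were lower. Against no CHIR it called 1 higher and 2 lower, where 23.4% of genes were called (11.4% higher and 12% lower), a share close to that of the members. Cre removal in high CHIR called 2 higher and 1 lower of 9, against 8.65% of genes (5.9% and 2.75%), and Cas9 removal the same numbers, against 5.09% (3.44% and 1.64%). Between high and low CHIR 3 members were lower without Cre (8.05% of genes called, 5.24% lower), 2 with the *GFP* guide (7.51%, 4.53% lower) and 2 in the Tcf/Lef controls (14.9%, 7.96% lower), or 4 with the replicate block. This comparison called none with Cre (0.292%) or with the *Ctnnb1* guide (0.763%), where limma gave an unadjusted p below 0.05 for 0 and 3 members. Cas9 removal in low CHIR called none (0.0536%), with 2 members at an unadjusted p below 0.05 (limma). The tests of a changed CHIR response called none for Cre (0.995%), Cas9 (0.518%) or QKO (0.126%), with 3, 3 and 0 members at an unadjusted p below 0.05 (limma). The shares in brackets are of genes called. No share of all genes at an unadjusted p below 0.05 is given, here or for the lists below, so those counts cannot be weighed.

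**Figure D4:**
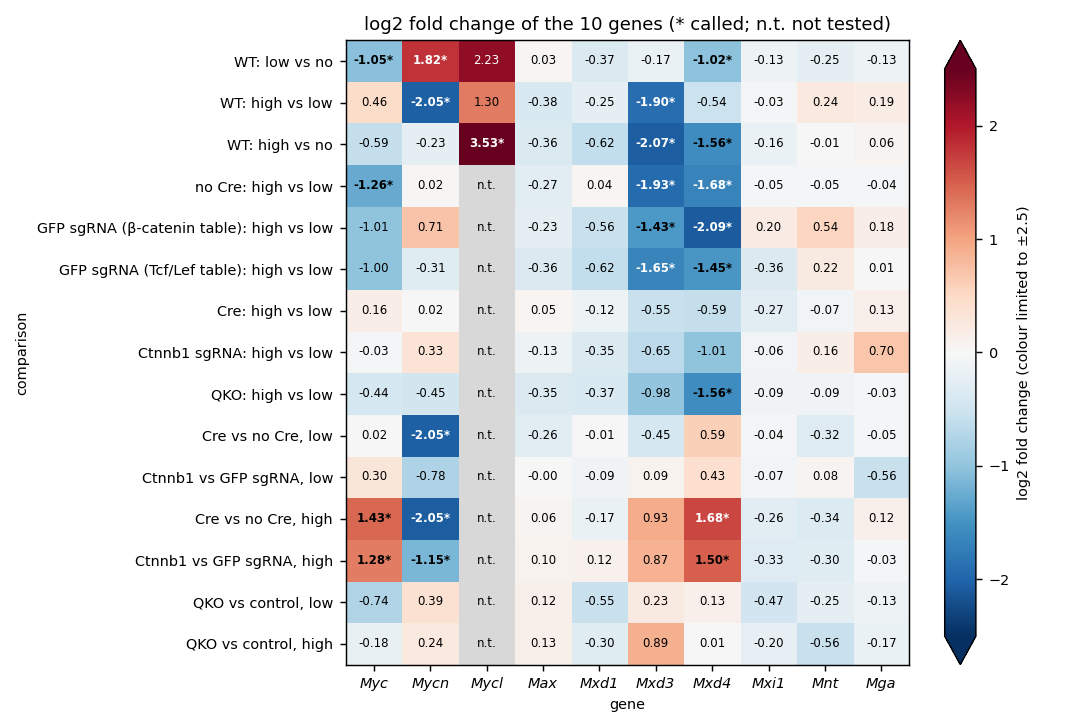
Log2 fold changes of the 10 genes in the comparisons, in colour and as numbers, with called values marked and *Mycl* marked where it was not tested. *Mycn*, *Myc*, *Mycl*, *Mxd3* and *Mxd4* hold all called values, and *Max*, *Mxi1* and *Mnt* stay between -0.56 and 0.54.

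Genes with a pattern most like a member's were ranked among the 11707 genes with at least 50 normalized counts on average in every table, by the lowest of the Pearson correlations in the 3 tables (over 9, 16 and 11 libraries). The libraries share groups, so the values describe patterns over groups. Closest to *Mycn* were *Dtnb* (0.75), *Foxo3* (0.70), *G3bp1* (0.67), *Amph* (0.66) and *Cyth1* (0.65), and closest to *Myc* were *B4galt4* (0.82), *Tspan7* (0.80), *Cask* (0.73), *Psmd8* (0.69) and *Kptn* (0.68). Closest to *Mxd3* were *Il33* (0.92), *Syt12* (0.90), *Zadh2* (0.90), *Palm3* (0.89) and *Cacnb3* (0.89), and closest to *Mxd4* were *Btd* (0.92), *Sparc* (0.92), *Rab3il1* (0.91), *Fam19a1* (0.90) and *Cask* (0.89).

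Genes of ribosome assembly and growth that Myc proteins are known to promote were followed as a list of 60. From no to low CHIR in wild type 13 rose and none fell, where 2.6% of all genes were called higher and 2.37% lower. Of the 60, 59 had a fold change above 0, and the median was 0.43 against -0.01 for all genes. *Tfrc*, the transferrin receptor (1.72, adjusted p = 0.00345, limma), *Hk2*, a hexokinase (1.25, adjusted p = 0.0104, limma), and *Mybbp1a*, a nucleolar protein (1.01, adjusted p = 0.0312, limma), had the largest changes called. From low to high CHIR, where *Mycn* fell, 1 of 60 rose, *Hk2* (0.73, adjusted p = 0.0449, limma), and 928 of 17411 genes tested did. The median was 0.05 against 0.01 for all genes. High against no CHIR called 26 higher and none lower, where 11.4% of all genes were called higher and 12% lower, with a median of 0.47 against 0.02.

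β-Catenin removal by Cre in low CHIR called none of the 60 (18 at an unadjusted p below 0.05, limma), 4 had a fold change above 0, and the median was -0.40 against -0.01 for all genes. The cycling cell genes had a median of -0.50 there, and none was called. By Cas9 in low CHIR none of the 60 was called and the median was -0.08 against 0.01 for all genes. In high CHIR Cre removal lowered *Hk2* (-0.93, adjusted p = 0.00498, limma) and called no other of the 60, and Cas9 removal called none. The QKO called none at either level, with medians of 0.04 and 0.09 against 0.04 and 0.00 for all genes. Between high and low CHIR 6 were called higher in the Tcf/Lef controls, 2 with the *GFP* guide and 1 each with the *Ctnnb1* guide and in the QKO, and none with or without Cre. Over all genes tested, 1108 and 225 of 15878 were called higher in the Tcf/Lef controls and the QKO. The numbers were 500, 105, 47 and 470 of 16780 with the *GFP* guide, the *Ctnnb1* guide, with Cre and without Cre.

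**Figure D5:**
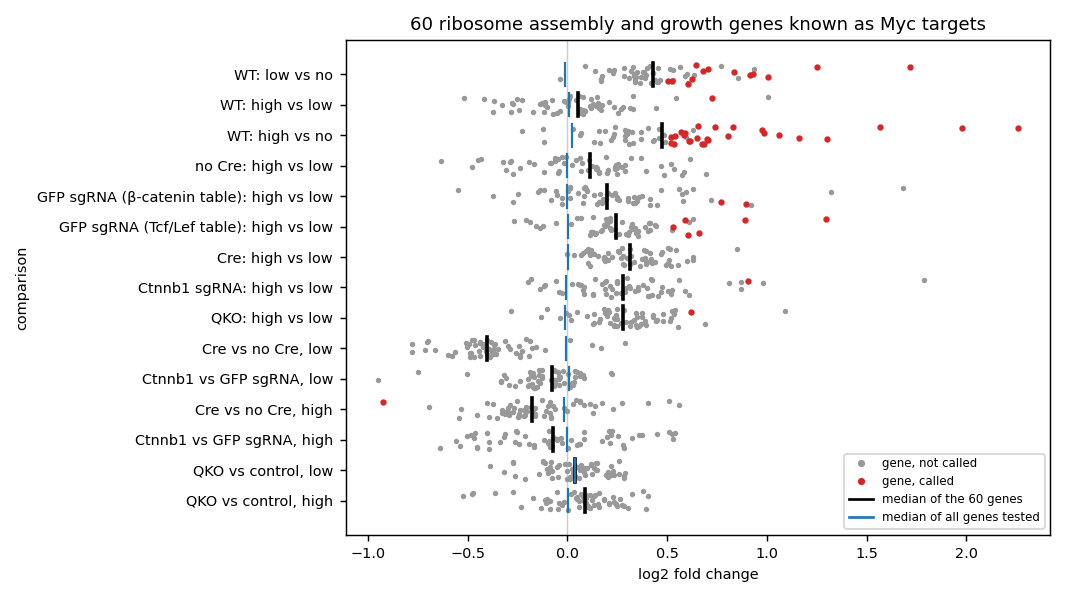
Log2 fold changes of the 60 ribosome assembly and growth genes in the comparisons; each point is a gene, called genes are marked, and bars give the median of the 60 genes and of all genes tested. The genes lie mostly above 0 in wild-type low against no CHIR (median 0.43) and mostly below 0 with Cre in low CHIR (median -0.40).

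Of 9 genes that Myc is known to lower, *Ccng2*, a cyclin G gene, rose from no to low CHIR (0.88, adjusted p = 0.0396, limma). From low to high CHIR *Ndrg2* fell (-2.05, adjusted p = 0.000193, limma) and *Ndrg4*, of the same family, rose (1.52, adjusted p = 0.00723, limma). In the QKO in high CHIR the Cdk inhibitor gene *Cdkn1a* was the only one of the 9 called (1.82, adjusted p = 0.0136, limma). Of all genes tested, 2.6% were called higher from no to low CHIR and 10.4% in either direction from low to high. In the QKO in high CHIR 2.54% were called. Of 6 further E-box proteins and Myc partners, *Mlxipl*, a glucose-responsive partner of Mlx, was higher in high than in low CHIR without Cre (3.07, adjusted p = 0.0127, limma), with the *GFP* guide (2.64, adjusted p = 0.0319, limma) and in the Tcf/Lef controls (1.72, adjusted p = 0.0153, limma), and in high than in no CHIR in wild type (1.87, adjusted p = 0.0302, limma). None of the other 5 was called in any comparison. The comparisons that called *Mlxipl* called 8.05%, 7.51%, 14.9% and 23.4% of all genes tested, in that order.

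Of 16 Myc cofactors, *Sin3a*, the Mxd corepressor, rose from no to low CHIR (0.68, adjusted p = 0.0476, limma) and *Cdk9*, the elongation kinase, was higher in high than in no CHIR (0.86, adjusted p = 0.00312, limma). None of the 16 was called in the knockout tables. Of all genes tested, 2.6% were called higher in low and 11.4% in high than in no CHIR. Of 14 genes that set Myc protein stability, *Skp2*, a ubiquitin ligase subunit, rose from no to low CHIR (0.94, adjusted p = 0.00410, limma). *Aurka*, a kinase that shields Mycn protein from degradation, was lower with Cre in low (-0.84, adjusted p = 0.0405, limma) and high CHIR (-0.69, adjusted p = 0.0134, limma). These Cre comparisons called 0.149% and 2.75% of all genes lower. Of the 16 cycling cell genes none was called between no and low CHIR (median 0.69, 7 at an unadjusted p below 0.05, limma) or between low and high CHIR (median -0.89, 9 at an unadjusted p below 0.05, limma).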

How the data were processed

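RNA-seq libraries of mouse NPCs were made by the authors with the SMARTer Ultra Low kit, which does not mark strand, aligned with STAR to mouse and human genomes and counted per gene with featureCounts. The deposited signal values are these gene counts divided by DESeq2 size factors within each of 3 tables. Reads recovered from these values were whole within 0.01 reads in all 36 libraries, and those of 33 libraries were used in the count tests. The 50 per-library columns of 8 tables of the authors' own comparisons (with fold changes and p-values) were not used.

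Genes averaging 10 or more normalized counts in a table were tested as log2(normalized count + 1) with limma 3.58.1 in R 4.3.3, fitted per table over all its groups, with Benjamini-Hochberg adjustment. Libraries were grouped by their labels, in 18 planned comparisons and 2 added after the data were seen (Cre against Cas9). The members and lists were chosen with earlier results of these data known. All members were named, with at most the 3 largest called changes of another list and the 5 genes most like *Mycn*, *Myc*, *Mxd3* and *Mxd4*. Alternatives were a pseudocount of 0.5, no filter, TMM rescaling, a replicate block, a log2 cut-off of 1, fits on the compared groups, leaving out each library, and edgeR 4.0.16 and DESeq2 1.42.0 on recovered reads. The script was tested on simulated data with 200 changed genes. Replicate numbers paired the Tcf/Lef libraries (correlations of same-numbered deviations 0.249 to 0.637), as judged from the data. Depth ranged from 13089780 to 76071568 reads, and each group's 2 or 3 libraries limit the precision. Symbols, coordinates and exon lengths were taken from GRCm38 annotation, and sequences from RefSeq.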

Additional observations from a re-analysis of the deposited data

Results flagged for a closer look

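For 4 sets of comparisons, the groups of libraries did not overlap and moved in opposite directions in different comparisons. Groups often failed to overlap over all genes tested, for 27.9 to 57.8% of genes in these comparisons of high with low CHIR and 16.4 to 34.3% in these removals and the QKO in low CHIR. The sets were picked for this, and differences between tables were not tested. For *Mycn*, high against low CHIR gave a log2 fold change of -2.05 in wild type and -0.45 in the QKO but 0.71 with the *GFP* guide of the β-catenin table. Still for *Mycn*, removal in low CHIR gave -2.05 with Cre and -0.78 with Cas9, while the QKO gave 0.39. For *Myc*, high against low CHIR gave 0.46 in wild type, -1.26 without Cre and -1.01 with the *GFP* guide. For *Mxi1*, high against low CHIR gave -0.27 with Cre and -0.062 with the *Ctnnb1* guide but 0.20 with the *GFP* guide, and none of these 3 was called. All of them were in the β-catenin table. The change in CHIR response between its *Ctnnb1* and *GFP* guides was tested and not called for *Mxi1*.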

How the results depend on the processing

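None of 295 values under alternatives changed sign where the member was called. Over called and uncalled members together 110 of 2427 did, 102 of them with a library left out (*Mycn* without Cre, 0.02, ran from -0.28 to 0.32). Of 1374 member values under alternatives that kept all libraries, 1349 stayed on their side of the threshold, 4 lost their call and 21 gained one, and of 1053 with a library left out, 1015, 28 and 10 did. The number of members called changed by more than 1.5 times as follows, and the cause was not tested. Fits on the compared groups alone gave 0 for Cre removal in low CHIR, 1 for Cre removal in high CHIR and 2 for high against low CHIR in the QKO. DESeq2 on recovered reads gave 5 for wild-type high against no CHIR, 1 for high against low CHIR with the *Ctnnb1* guide and 2 in the QKO. The replicate block gave 1 with the *Ctnnb1* guide, 1 for the QKO in high CHIR and 4 in the Tcf/Lef controls. A replicate block within the Cre and the Cas9 experiment, added after the data were seen, gave 2 with the *Ctnnb1* guide and 1 for the changed CHIR response with Cre. Outside the Tcf/Lef table, where the numbers were not taken to pair the libraries, the replicate block added calls (adjusted p, limma) for *Myc* in wild-type high against no CHIR (0.0448) and with the *GFP* guide (0.0398, 0.0222 within experiments), for *Mga* with the *Ctnnb1* guide (0.0342, 0.0190 within) and for *Mxd3* on Cre removal in high CHIR (0.0340, 0.00937 within). The block within experiments alone added *Mxd3* on Cas9 removal in high CHIR (0.0195) and in the changed response with Cre (0.0267) and *Mxd4* with the *Ctnnb1* guide (0.0409).

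With a library left out, members called ranged from 1 to 2 for wild-type low against no CHIR, 2 to 3 for high against low and 3 to 5 for high against no CHIR. They ranged from 0 to 1 for Cre removal in low CHIR, 2 to 3 for Cre removal and 0 to 1 for Cas9 removal in high CHIR, 2 to 3 without Cre, 1 to 3 with the *GFP* guide, 0 to 1 for the changed response with Cre and 2 to 3 in the Tcf/Lef controls. The same-numbered correlations were -0.0156 to 0.272 in wild type, which did not pass 0.1 for every pair, and 0.142 to 0.518 in the β-catenin table, which has only 2 numbers.

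Counts over all genes moved more. Wild-type low against no CHIR called 865 genes, 2038 in a fit on those groups, 1801 with DESeq2 and 499 at a log2 cut-off of 1, which also gave 2662 instead of 4070 for high against no CHIR and 1568 instead of 2372 for the Tcf/Lef controls. Cre removal in low CHIR called 55, with 173 under the block, 513 under the block within experiments, 249 with DESeq2 and 11 on those groups alone. Cas9 removal in low CHIR called 9, or 0 with a pseudocount of 0.5 or on those groups alone, and 21 under the block within experiments. In high CHIR, Cre removal called 1452 (714 on those groups, 2639 with the block within experiments) and Cas9 removal 854 (1442 with the block, 2133 within experiments, 1729 on those groups, 1377 with DESeq2). High against low CHIR called 1350 without Cre (2661 within experiments, 616 on those groups), 49 with Cre (128 and 0), 1260 with the *GFP* guide (2562 within experiments) and 128 with the *Ctnnb1* guide (215 with the block, 447 within experiments, 233 on those groups, 300 with DESeq2). The changed response called 167 with Cre (293, 526 within experiments, 51 on those groups) and 87 with Cas9 (142 and 235 within experiments). The QKO called 1 in low CHIR (16 with the block, 24 with DESeq2, 4 with no filter, 0 on those groups) and 404 in high CHIR (1181 with the block). High against low CHIR in the QKO called 403 (952 with the block, 876 with DESeq2), the changed response in the QKO 20 (136 with the block), and Cre against Cas9 in high CHIR 0 (12 with the block, 20 within experiments). The count tests were run only for comparisons in which every library was among the 33 of 36 used in them.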
